A study of Mus musculus with 4 samples.

Results

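The serum- and glucocorticoid-regulated kinases (SGK) and 2 of their substrates were followed over the 4 arrays of the series. The members were *Sgk1*, *Sgk2*, *Sgk3*, *Nedd4l* and *Ndrg1*, and they were found as all probes whose gene name in the array files equals one of these symbols. This gave 5 genes of 30222 gene names, carried by 7 probes of 39429. *Sgk3* and *Nedd4l* had a brighter and a dimmer probe each, and the other members had 1 probe.

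Male mice of the outbred ICR stock, given as 5 to 6 weeks old in the study's methods, gave RNA from slices of the lumbar cord (L4 to L5). All mice, controls included, had partial sciatic nerve ligation (PSL), an injury that makes the hindpaw hypersensitive, and were sampled on day 7 after it. They had been sham-operated (sham+PSL) or adrenalectomized and given saline to drink (ADX+PSL), and were killed at zeitgeber time (ZT) 10, late in the light phase, or ZT22, late in the dark phase. Each of the 4 conditions had 1 one-colour array, so no difference below has a replicate or a test. The number of mice behind each RNA and the side of the cord are not given in the sources used here. Adrenalectomy removes aldosterone and adrenaline along with corticosterone, so that the loss of 1 hormone cannot be told apart from the loss of the others in these groups.

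SGK kinases are relatives of AKT. They are switched on when the kinase complex mTORC2 and then PDK1 phosphorylate them. For SGK1 the amount of its messenger RNA is strongly regulated as well: glucocorticoids, mineralocorticoids, serum and cell stress raise it within a short time. Both messenger and protein are short-lived. The ubiquitin ligase NEDD4L removes sodium channels from the cell surface until an SGK phosphorylates it, and NDRG1 is a substrate whose phosphorylation is commonly used to read SGK activity. Arrays measure messenger RNA, and thus neither kinase activity nor phosphorylation.

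The probes are 60 bases long, and the first 30 bases of 5 of them, read 5′ to 3′ in the sense of the transcript, are shown to identify what stood for each kinase and for *Ndrg1*. No base is set in capitals here.
Sgk1: gtatcgtgtaaaggaagtctgtacattggg
Sgk2: tgaggttgctctatgtggacggtgtctttg
Sgk3, brighter probe: taagcagaatgaagtatagaaactccaggt
Sgk3, dimmer probe: aaagattccacctccatttaaccctaatgt
Ndrg1: agttgctagaggaaaagtagttatgcccta
The longest run of bases that any pair of the 7 probes shared was 8, over 21 pairs. On mm9, the build of the array's annotation, the *Sgk1* probe lay at chr10:21719507-21719566 and the *Sgk2* probe at chr2:162839803-162839862, both on the plus strand. The brighter *Sgk3* probe lay at chr1:9892452-9892511. The dimmer one spanned 7329 bases of the genome, chr1:9881501-9888829, with 60 bases of transcript, so it crosses an intron. The *Ndrg1* probe lay at chr15:66761057-66761116 on the minus strand. By the array's annotation the probes started at base 2903 of the *Sgk1* transcript, 2481 of *Sgk2*, 5317 and 1635 of *Sgk3*, 8144 and 3530 of *Nedd4l* and 2653 of *Ndrg1*.

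The promoter of *Sgk1* is shown because this is the member that glucocorticoids are known to induce. RefSeq (GRCm38.p6) gave 6 start sites for *Sgk1*, each with a window of 300 bases. The palindrome to which a pair of glucocorticoid receptors binds in its textbook form, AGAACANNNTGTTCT, was present in 1 of these 6 windows. The 250 bases before that start site, chr10:21993640-21993889 on the plus strand, are shown with the palindrome in capitals.
Sgk1 promoter: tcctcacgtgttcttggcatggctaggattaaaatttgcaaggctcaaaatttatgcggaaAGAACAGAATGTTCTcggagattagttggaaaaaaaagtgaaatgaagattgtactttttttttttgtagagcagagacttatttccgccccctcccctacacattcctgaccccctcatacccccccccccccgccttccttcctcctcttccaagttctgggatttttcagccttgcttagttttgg
It lies 189 to 175 bases before the start. The same letters were found in 3 of 32851 promoter windows (0.00913%), *Sgk1* included. The half-site AGAACA or its reverse complement TGTTCT, which the palindrome contains, was in 3 of the 6 *Sgk1* windows and in 6233 of all windows (19.0%). A match describes the sequence and does not show that the receptor binds there, and the arrays do not measure binding. The study itself used chromatin immunoprecipitation in the cord. It reported that the daily change of *Sgk1* expression went with enhanced receptor binding to the promoter region. The forward primer of that assay matches bases near the start of the sequence shown. The reverse primer, read on the other strand, matches its end, so the amplified stretch spans this palindrome. The distance upstream that the study gives for its response element is larger than the one here, and such distances depend on the start site counted from. No window of *Sgk2*, *Sgk3*, *Nedd4l* or *Ndrg1* was in the table used here.

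Levels are the authors' intensities, in arbitrary units, quantile-normalized over the 4 arrays. They can be compared between arrays for 1 probe, but not between probes. All 7 probes were well above background on 4 of 4 arrays. A probe is counted as past the limit at a ratio of 1.5 or more either way between arrays on which it was well above background. The spot error of a log2 ratio was 0.20 for 6 of the probes and up to 0.23 for the dimmer *Sgk3* probe. It is the value that the scanner's software assigns, nearly the same for 6 probes of very different level, and it covers the measurement of the spots alone. The measured spread of probes printed 10 times was smaller, with a median SD of a log2 ratio of 0.044 to 0.069 within an array. Comparisons with the spot error below use the software's value. In bulk slices, fewer cells of a type and less RNA per cell cannot be told apart.

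The arrays also differed in tissue that is not cord. The summed level of 5 red blood cell genes was 18740 on the ZT22 array of sham+PSL against 89771 to 135848 on the others, with *Hba-a2* the brightest. That of 5 fast muscle genes was 2438 on the ZT10 array of sham+PSL against 179 to 252. *Tnni2* was the brightest of them by mean level, and *Myh4* (811) on that array. Only 3 of the 5 were well above background on every array. The summed level of 6 meningeal fibroblast genes was 14703 (ZT10) and 12899 (ZT22) in sham+PSL. In ADX+PSL it was 4508 (ZT10) and 5070 (ZT22), with *Dcn* the brightest. The lists for neurons (171753 to 192065) and astrocytes (106391 to 127542) varied less, and all of their genes were well above background on every array. The astrocyte sum is dominated by *S100b* (63570 to 81120) and can hide single genes. *Gfap* was at 8565 on the ZT10 array of ADX+PSL against 15516 to 18028 on the others. It was the 1 astrocyte gene of 7 past 1.5-fold in any comparison.

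*Sgk1* stood high on 1 array and *Sgk2* on another, both of them sham+PSL arrays. *Sgk1*, the inducible kinase, was at 3889 (ZT10) and 1748 (ZT22) in sham+PSL, and at 1836 (ZT10) and 1453 (ZT22) in ADX+PSL. The ZT10 array of sham+PSL was thus 2.12-fold above the next, and the other 3 arrays lay within 1.26-fold of each other. Next in order, the ZT10 array of ADX+PSL and the ZT22 array of sham+PSL did not differ beyond the spot error (log2 difference 0.07), and the step down to the ZT22 array of ADX+PSL (0.27) was a little over it.

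*Sgk2*, a kinase of the same family that is not known for induction by glucocorticoids, was at 1122 (ZT10) and 1804 (ZT22) in sham+PSL, and at 1087 (ZT10) and 1150 (ZT22) in ADX+PSL. The ZT22 array of sham+PSL was 1.57-fold above the next, and the other 3 lay within 1.06-fold, which is inside the spot error. The time at which each of these kinases was high in sham+PSL mice was therefore the opposite one. In ADX+PSL mice neither kinase passed 1.5-fold between the time points. *Sgk1* was still 1.26-fold higher at ZT10 there (log2 0.34, past the spot error of 0.20), while the ratio of *Sgk2* (-0.08) was within it. The study's list of candidates gives *Sgk1* the opposite direction in ADX+PSL, lower at ZT10. The inverse of the ratio found here is 0.79.

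*Sgk3*, which is carried to endosomes by a lipid-binding domain that SGK1 and SGK2 lack, was the steadiest of the kinases on its brighter probe. Its levels were 4791 (ZT10) and 4497 (ZT22) in sham+PSL, and 4832 (ZT10) and 5522 (ZT22) in ADX+PSL, a range of 1.23-fold. When ranked by level, no neighbours differed beyond the spot error, while the highest and the lowest did (log2 difference 0.30). The dimmer, intron-crossing probe read 65.2 and 76.0 in sham+PSL and 73.3 and 90.6 in ADX+PSL, each in the order ZT10, ZT22. On both probes the ZT22 array of ADX+PSL was the highest.

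**Figure D1:**
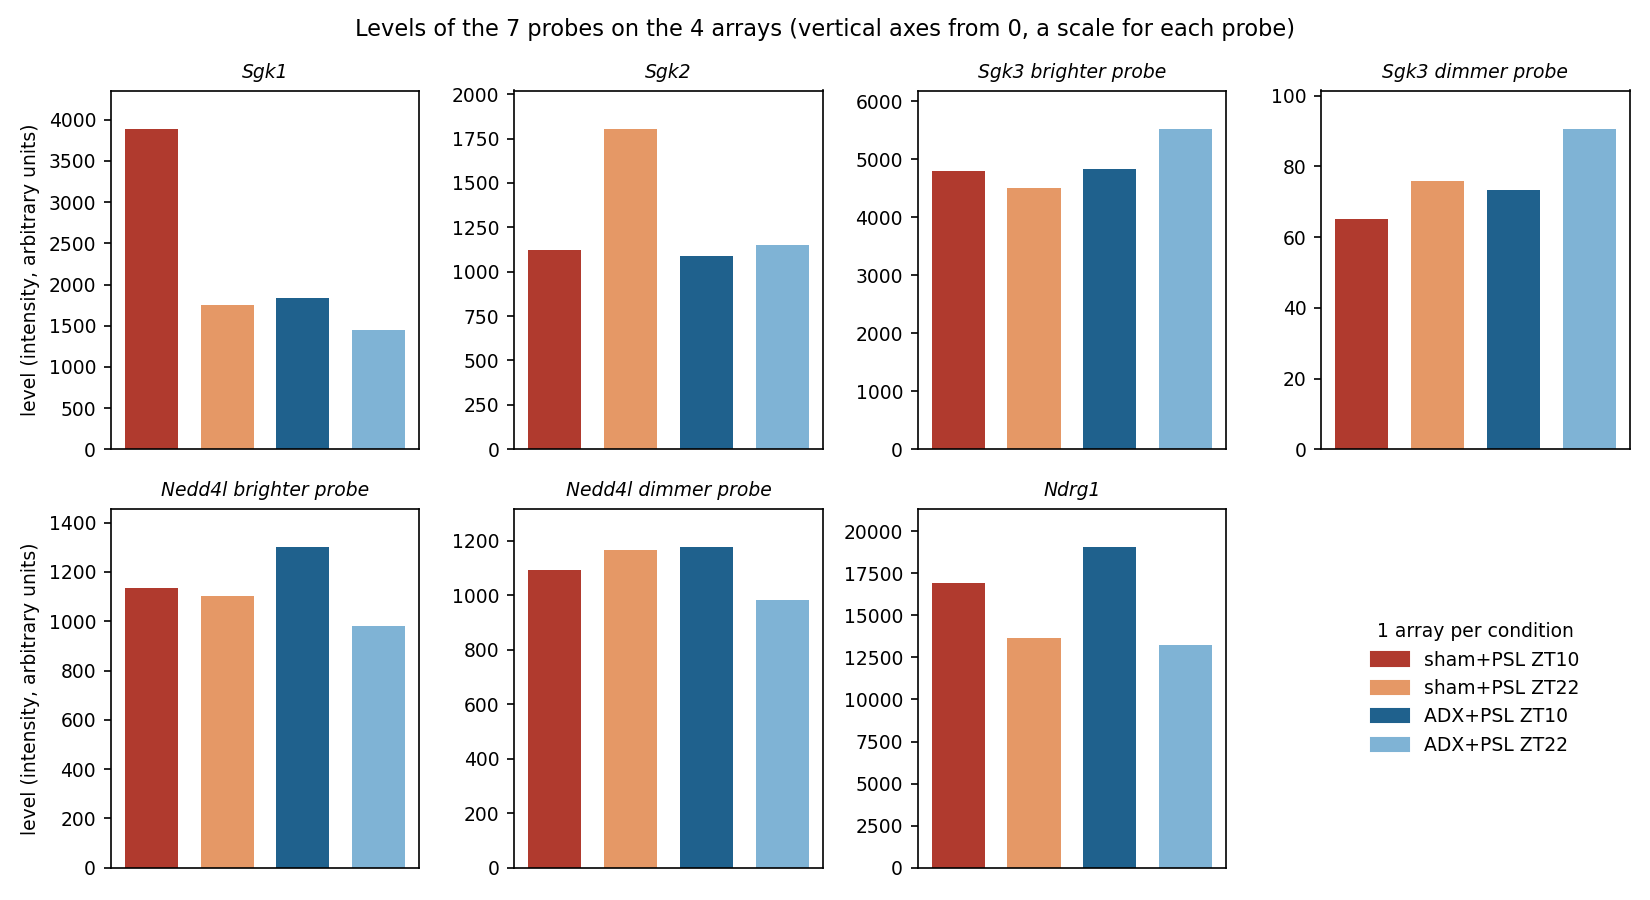
Level of each of the 7 probes (vertical axis, intensity in arbitrary units, from 0, with a scale of its own for each probe) on the 4 arrays, 1 bar per array and no replicates. *Sgk1* is high on the ZT10 array of sham+PSL (3889, the other arrays 1453 to 1836) and *Sgk2* on the ZT22 array of sham+PSL (1804, the other arrays 1087 to 1150), while the other probes vary by less than 1.5-fold.

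Among probes that were well above background on every array, 0.428% were at least 1.5-fold above every other array on the ZT10 array of sham+PSL, with the other 3 arrays within 1.5-fold, as *Sgk1* was. The share was 0.548% for the ZT22 array of sham+PSL, the shape of *Sgk2*. It was 0.328% (ZT10) and 0.432% (ZT22) for the ADX+PSL arrays, the shape of 0 of the 7 probes. For *Sgk1*, the array that is high is also the one with the fast muscle signal. For *Sgk2*, it is the one with the low red blood cell signal and with the highest summed level of 5 microglial genes (36815 against 24200 to 28472, with *Csf1r* the brightest). The part of these tissues in either result was not tested. With the ZT22 array of sham+PSL left out, *Sgk1* on the ZT10 array of sham+PSL was 2.12-fold and 2.68-fold above the ADX+PSL arrays. With the ZT10 array of sham+PSL left out, no ratio of *Sgk1* between arrays passed 1.26. With the ZT22 array of sham+PSL left out, none of *Sgk2* passed 1.06.

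Of the substrates, *Nedd4l* stayed within 1.5-fold on both probes. Its brighter probe read 1134 (ZT10) and 1103 (ZT22) in sham+PSL, and 1300 (ZT10) and 982 (ZT22) in ADX+PSL. Its dimmer probe read 1094 and 1167 in sham+PSL and 1175 and 983 in ADX+PSL. On both probes the ADX+PSL arrays were the extremes, ZT10 the highest and ZT22 the lowest. Their ratio was 1.32 on the brighter probe and 1.20 on the dimmer. When ranked by level, no neighbours differed beyond the spot error, while the highest and the lowest did (log2 difference 0.40 and 0.26).

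*Ndrg1*, which is also known as the gene of a hereditary neuropathy in which Schwann cells fail to keep their myelin, was higher at ZT10 than at ZT22 in both operations. Its levels were 16899 (ZT10) and 13627 (ZT22) in sham+PSL, and 19037 (ZT10) and 13250 (ZT22) in ADX+PSL. Both ZT10 arrays were above both ZT22 arrays, with a gap of 0.31 on the log2 scale between the nearest of them. Within each time point the operations differed by less than the spot error. Of the 5 Schwann cell genes, 3 were well above background on every array, and they did not run one way with the time point. *Pmp22*, the brightest, was lower at ZT10 in both operations (log2 -0.22 in sham+PSL, -0.31 in ADX+PSL), while *Prx* (0.92, 0.17) and *Ncmap* (0.25, 0.12) were higher. Between operations *Prx* was far lower in ADX+PSL (log2 -3.51 at ZT10, -2.77 at ZT22). Their part in the *Ndrg1* levels was not tested.

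The question put by comparing ZT10 with ZT22 is whether a gene follows the time of day, and by comparing operations whether it does so only with the adrenals in place. In sham+PSL, 2 of the 7 probes passed 1.5-fold between time points. *Sgk1* was 2.22-fold higher at ZT10 (log2 1.15 ± 0.20, spot error, n = 1 array each) and *Sgk2* 1.61-fold lower (log2 -0.69). Of all 25812 probes measured, 6.49% passed either way. Only 0.577% of these probes had a higher log2 ratio than *Sgk1*, while 2.75% had a lower one than *Sgk2*. Of the 5324 probes within 2-fold of the mean level of *Sgk1*, 14 had a higher ratio. The study itself picked *Sgk1* as a candidate from these same arrays. Its criteria were a higher level at ZT10 in sham+PSL, similar levels at both times in ADX+PSL, and lower levels in ADX+PSL than in sham+PSL. The ranks of *Sgk1* among probes, here and in the other comparisons, are therefore no independent support for its pattern. At a limit of 2-fold, *Sgk1* alone passed of the 7, against 0.856% of all probes past it in this direction. The remaining 5 probes had log2 ratios between -0.22 and 0.31. In the same comparison the 3 fast muscle genes measured were 3 of 3 past 1.5-fold higher at ZT10 (median log2 ratio 3.90), as were 5 of 5 red blood cell genes (3.05). The 5 microglial genes had a median of -0.41 and 0 past the limit. Their part in either ratio was not tested.

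In ADX+PSL, 0 of the 7 probes passed 1.5-fold between time points, against 5.17% of all 25376 probes, and 0 passed 2-fold, against 1.54%. *Ndrg1* was the nearest to the limit, 1.44-fold higher at ZT10 (log2 0.52 ± 0.20). Among the 2080 probes within 2-fold of its mean level, 6 had a higher ratio. The *Nedd4l* probes were at 0.40 and 0.26 and *Sgk1* at 0.34, all higher at ZT10. *Sgk2* was at -0.08, and the *Sgk3* probes were at -0.19 and -0.31. Of the astrocyte genes, 1 of 7 was past 1.5-fold lower at ZT10 in this comparison (*Gfap*, log2 -1.07). So was 1 of 5 measured for microglia (*Aif1*, -0.64), red blood cells (*Hbb-b2*, -0.80) and meningeal fibroblasts (*Lum*, -0.76). The lists for neurons and fast muscle had 0 past the limit. Their part in the member ratios was not tested.

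The log2 time ratio of *Sgk1* was 0.82 larger in sham+PSL than in ADX+PSL, with a spot error of 0.29. Of the 25009 probes that were well above background on every array, 2.46% had a larger difference in this direction. *Sgk1* had been picked by the study for this shape on the same arrays. That of *Sgk2* was lower by 0.60 in sham+PSL, and 4.56% of probes had a lower one. For *Ndrg1* the difference was -0.21 and within the spot error. For *Nedd4l* it was -0.36 and -0.35 on the brighter and the dimmer probe, that is, a larger time ratio in ADX+PSL. The comparison has 1 array in each of its 4 terms, so whether the operations differ in their time ratio was not tested here. The study followed *Sgk1* messenger and protein separately, in replicate mice over the day. It reported an oscillation in sham+PSL that was not detected in the injured side of ADX+PSL. It also reported that corticosterone given to ADX+PSL mice induced *Sgk1* in the cord.

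**Figure D2:**
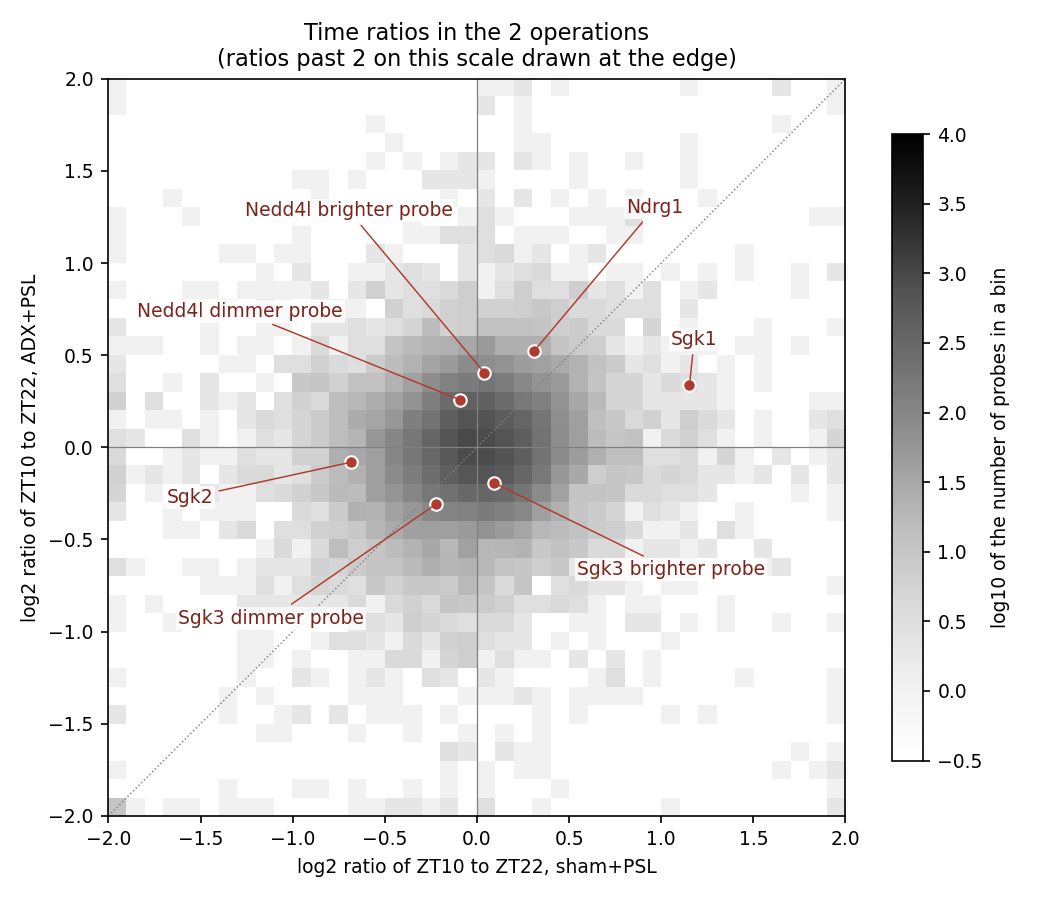
Log2 time ratio, ZT10 over ZT22, of sham+PSL (horizontal axis) against that of ADX+PSL (vertical axis), with all probes well above background on 4 arrays as grey bins (shade: log10 of the number of probes) and the 7 probes in red; the dotted line marks equal ratios. *Sgk1* (1.15 and 0.34) and *Sgk2* (-0.69 and -0.08) lie further out along the sham+PSL axis than along the ADX+PSL axis. *Ndrg1* (0.31 and 0.52) lies near the dotted line.

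Between operations at ZT10, 1 of the 7 probes passed 1.5-fold. *Sgk1* was 2.12-fold lower in ADX+PSL (log2 -1.08 ± 0.20), against 7.03% of 26411 probes past 1.5-fold either way and 1.36% past 2-fold lower. A lower log2 ratio was seen for 1.11% of the probes, a rank that follows the study's selection of *Sgk1* on these arrays. The other 6 probes had log2 ratios between -0.05 and 0.20. The 6 meningeal fibroblast genes measured in this comparison were 6 of 6 past 1.5-fold lower in ADX+PSL, with a median log2 ratio of -2.02, and the 3 fast muscle genes measured were 3 of 3 lower with a median of -3.53. The medians of neurons (-0.03) and astrocytes (0.04) were near 0, with 0 of 5 and 1 of 7 genes past the limit, the latter *Gfap* (-0.86). Their part in the *Sgk1* ratio was not tested.

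At ZT22, 1 of the 7 probes passed 1.5-fold between operations. *Sgk2* was 1.57-fold lower in ADX+PSL (log2 -0.65 ± 0.20), against 6.31% of 25141 probes past 1.5-fold, and 0 of the 7 passed 2-fold, against 1.79%. Without normalization between arrays the *Sgk2* ratio was -0.52 and 0 of the 7 passed 1.5-fold. *Sgk1* was 1.20-fold lower (log2 -0.27). Both *Sgk3* probes were higher in ADX+PSL, at 0.30 and 0.25. The 5 red blood cell genes were 5 of 5 past 1.5-fold higher in ADX+PSL in this comparison, with a median log2 ratio of 2.48, and 4 of the 5 meningeal fibroblast genes measured were past 1.5-fold lower, with a median of -1.25. Their part in the *Sgk2* ratio was not tested.

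**Figure D3:**
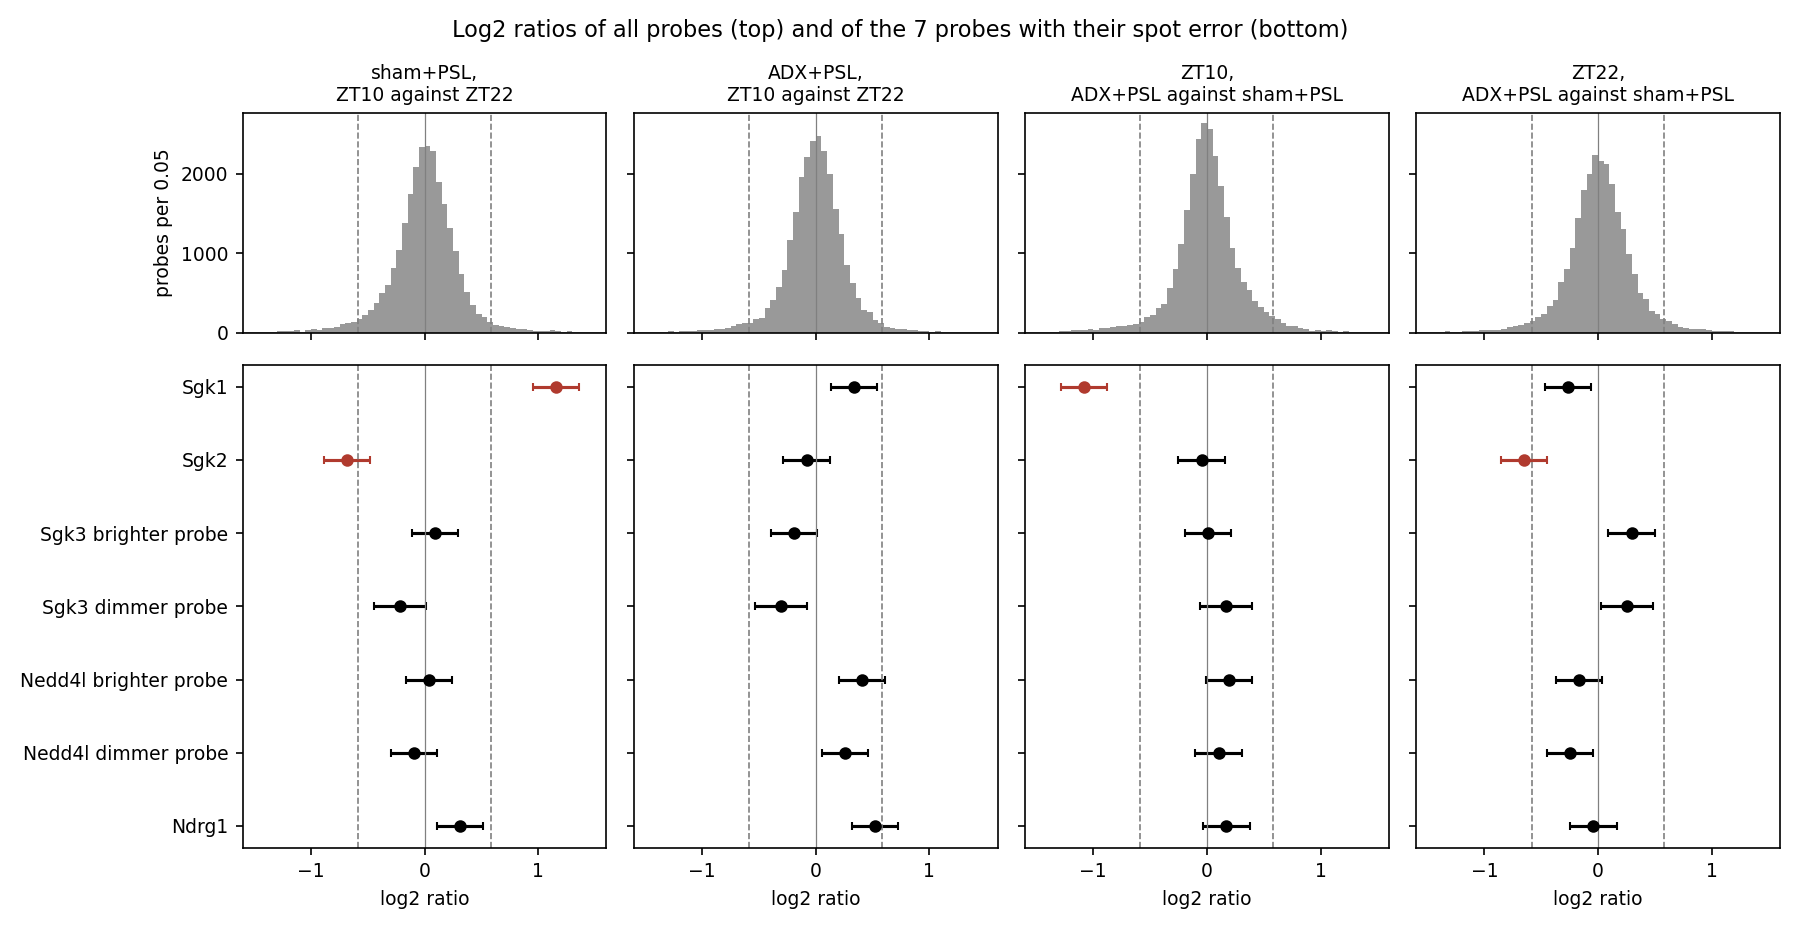
Top, number of probes per 0.05 of log2 ratio (all probes well above background on both arrays); bottom, log2 ratio of each of the 7 probes, with bars for the spot error, in the 4 comparisons. Dashed lines mark 1.5-fold and probes past it are red. Only *Sgk1* (1.15 in sham+PSL by time, -1.08 at ZT10 by operation) and *Sgk2* (-0.69 and -0.65, the latter -0.52 and under the limit without normalization) pass it.

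Both arrays of one time point lay above both of the other for 5 of the 7 probes, with *Sgk1*, *Ndrg1* and the brighter *Nedd4l* probe higher at ZT10 and *Sgk2* and the dimmer *Sgk3* probe lower. This order alone was met by 33.7% of all probes. With a gap between the nearest arrays past the spot error it was met by 1 of the 7, *Ndrg1*, against 4.14% of all probes. By operation, the arrays were separated for 1 of the 7, the brighter *Sgk3* probe, which was higher in ADX+PSL by a gap of 0.01, against 35.0% of all probes. With a gap past the spot error there were 0 of the 7, against 5.95%.

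Where a gene had 2 probes, their signs could be compared. The *Sgk3* pair had the same sign in 3 of 4 comparisons and the *Nedd4l* pair in 3 of 4. The exception was the time ratio in sham+PSL in both genes, where the brighter probe was at 0.09 and the dimmer at -0.22 for *Sgk3*, and at 0.04 and -0.09 for *Nedd4l*. The difference of 0.31 between the *Sgk3* probes there was about as large as its spot error (0.31), and every other difference was below its own.

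Around the members, 49 genes in 6 lists were measured, on the brightest probe of each, and 49 of 49 were well above background on every array. In each of the 4 comparisons 1 of the 49 passed 1.5-fold (2.04%). Over all genes the shares were 6.63% for time in sham+PSL, 5.16% for time in ADX+PSL, 7.06% for operation at ZT10 and 6.42% for operation at ZT22. The medians of the 49 log2 ratios were 0.05, 0.01, -0.02 and -0.00 in these comparisons, beside 0.00, -0.00, 0.00 and 0.01 over all genes.

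The list for SGK activation holds 14 genes, among them those for PDK1, the mTORC2 subunits, the PI3-kinase arm, WNK1 and ERK5. *Prr5*, a subunit of mTORC2, read 637 (ZT10) and 376 (ZT22) in sham+PSL, and 523 (ZT10) and 532 (ZT22) in ADX+PSL. It was the gene past the limit for time in sham+PSL (log2 0.76), with the ZT22 array of sham+PSL the low one. *Rictor*, the subunit that defines mTORC2, read 606 and 587 in sham+PSL and 588 and 827 in ADX+PSL, so that the ZT22 array of ADX+PSL was the high one (log2 0.49 against sham+PSL, under the limit). *Pdpk1*, which encodes PDK1, stayed between 5936 and 5962 on its brightest probe, and its log2 ratios on all of its 3 probes lay between -0.15 and 0.19.

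Of the 8 genes for relatives and adaptors of NEDD4L, *Nedd4*, the closest relative, read 8995 and 8692 in sham+PSL and 8712 and 10083 in ADX+PSL, and passed no limit. *Ndfip2*, an adaptor that activates ligases of this family, was dim. It read 56.6 and 65.6 in sham+PSL and 89.8 and 80.1 in ADX+PSL and was past the limit for operation at ZT10 (log2 0.66, higher in ADX+PSL). With mean signals this ratio was 0.38 after normexp correction and 0.34 without background correction, under the limit.

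The 3 relatives of *Ndrg1* passed no limit. *Ndrg2*, which astrocytes express strongly, read 62099 and 48701 in sham+PSL and 59264 and 46110 in ADX+PSL, with log2 time ratios of 0.35 and 0.36. *Ndrg3* had log2 time ratios of 0.19 and 0.24, and *Ndrg4* of -0.06 and 0.16. *Ndrg1*, *Ndrg2* and *Ndrg3* thus each had a positive time ratio in both operations and *Ndrg4* did not, without a test. The genes with positive ratios also had both ZT10 arrays above both ZT22 arrays. An order by time point, in either direction, was met by 33.7% of all probes, so no pattern of the family is read from it.

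Of 13 other substrates, *Wnk4*, a kinase that sets ion transport, was past the limit in ADX+PSL by time (log2 -0.99) and between operations at ZT22 (0.61). It was dim, at 59.1 and 83.8 in sham+PSL and 64.5 and 128 in ADX+PSL, the ZT22 array of ADX+PSL being the high one. With mean signals these ratios were -0.54 and 0.38 after normexp correction and -0.51 and 0.35 without background correction, under the limit. The brighter of the 2 probes for *Foxo3*, a transcription factor that AKT and SGK keep out of the nucleus, read 63.9 and 59.1 in sham+PSL and 51.6 and 50.2 in ADX+PSL. The dimmer read 21.2 and 28.2 in sham+PSL and 18.3 and 36.1 in ADX+PSL, with log2 time ratios of -0.41 and -0.98, the second past the limit, against 0.11 and 0.04 on the brighter probe, so that the probes of *Foxo3* disagreed. The 6 genes for SGK turnover and the 5 sister kinases (AKT and S6 kinases) had 0 past the limit in any of the 4 comparisons.

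**Figure D4:**
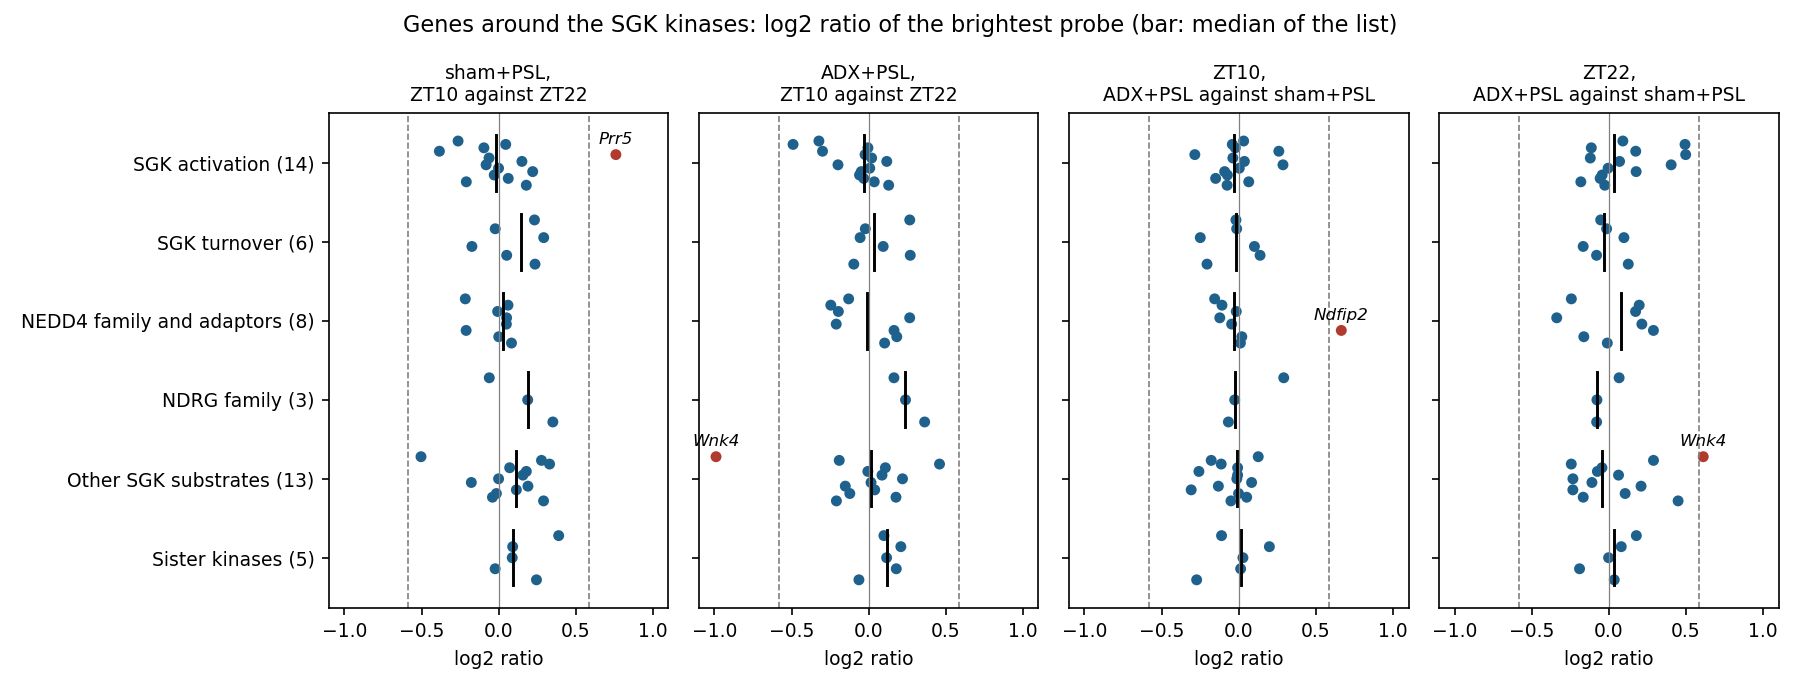
Log2 ratio (horizontal axis) of each of 49 genes around the SGK kinases, on its brightest probe, in the 4 comparisons, by list with the number of genes in parentheses; black bars are list medians and dashed lines mark 1.5-fold. Single genes pass the lines (*Prr5* at 0.76, *Wnk4* at -0.99 and 0.61, *Ndfip2* at 0.66), and the lists centre near 0.

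The genes most like *Sgk1* were found by the root-mean-square difference of centred log2 levels over the 4 arrays, among 19181 genes well above background on all of them. There were 15 genes (0.0782%) within the spot error of a single *Sgk1* level, 0.14. The 10 nearest were at distances of 0.061 to 0.131. The list depends on the background correction: with mean signals, 2 of these 10 genes were again among the 10 nearest after normexp correction and 1 without background correction. Their log2 time ratios in sham+PSL were 0.88 to 1.36 here and 0.44 to 1.09 with normexp-corrected mean signals. Of these, *Paqr5* (0.062), a membrane progestin receptor, read 223 and 113 in sham+PSL and 114 and 90.0 in ADX+PSL. *Acta1* (0.067), skeletal muscle actin, read 158 and 70.5 in sham+PSL and 66.4 and 56.9 in ADX+PSL. *Actn3* (0.105), an actinin of fast muscle fibres, read 93.2 and 50.8, then 46.0 and 39.1. *Ahcy* (0.110), the hydrolase of S-adenosylhomocysteine, read 542 and 223, then 232 and 221. The others were *Tcim*, *Gm3099*, *AA408251*, *4930555G01Rik* and features that carry no gene symbol. A distance over 4 arrays rests largely on the 1 high array, and 2 of the 10 are muscle genes.

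**Figure D5:**
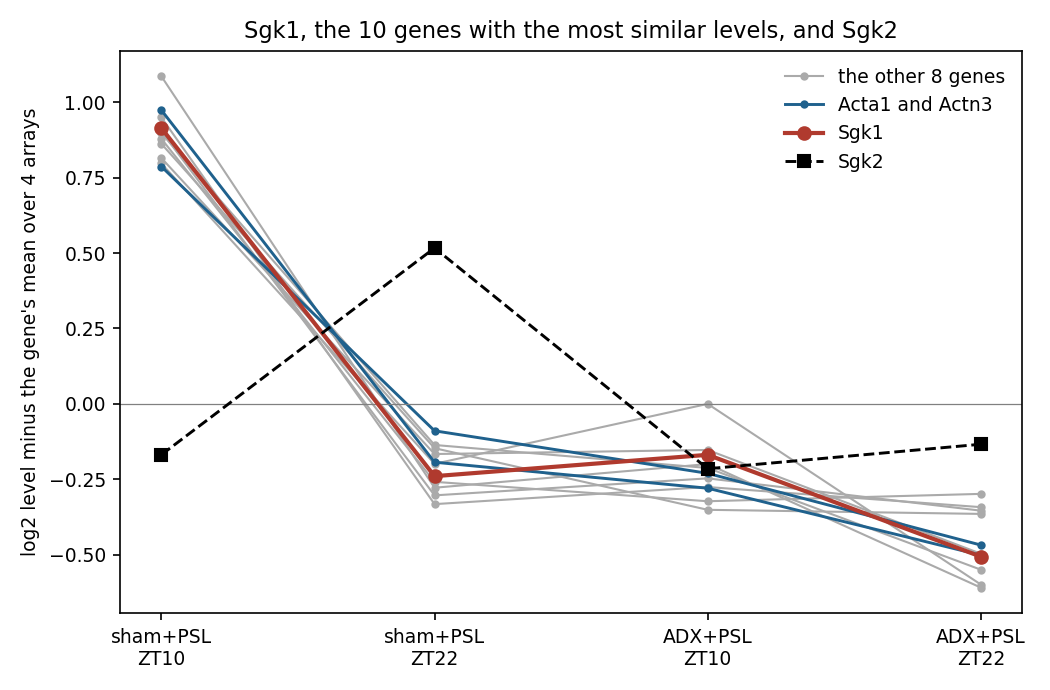
Log2 level minus the gene's mean over the 4 arrays (vertical axis), for *Sgk1* (red), *Sgk2* (black, dashed), the 10 genes nearest to *Sgk1* (blue for the muscle genes *Acta1* and *Actn3*, grey for the others), 1 array per condition. The lines of the 10 genes run close to *Sgk1* (distances 0.061 to 0.131; with normexp-corrected mean signals 2 of the 10 were found again), and *Sgk2* peaks on the ZT22 array of sham+PSL (1804).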

How the data were processed

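Agilent whole mouse genome arrays (1-colour, 60-base probes) measured 4 samples, 1 for each condition. The authors deposited, per array, spot intensities from Feature Extraction (version 10.7.1.1 in the file headers, 9.5.1.1 in the submitters' processing notes), with errors and background flags, and a table of linear intensities. In that table the 4 arrays had the same sorted values, that is, it was quantile-normalized over all of them, although the study's methods word the step for pairs of samples. Its log2 values had an r of at least 0.9999 with the scanner's signals.

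Here ratios were taken on the log2 scale, without pseudocount, from that table. A probe counted in a comparison if flagged well above background on both arrays, by over 50% of its spots. The limit was 1.5-fold, with 2-fold as a second. Symbols were updated for 26761 probes through RefSeq accessions (GRCm38.p6). No saturated spot was found, and 65.1% to 70.1% of probes were well above background. Probes printed 10 times, at levels between 1000 and 20000, had a median SD between spots of 0.031 to 0.049 (log2). With 1 array per condition no test across samples was possible, and precision is limited by how few arrays there are. The 4 arrays shared 1 slide.

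Genes named were all members, pathway genes past 1.5-fold on their brightest probe (at most 4 a list) together with *Pdpk1*, *Rictor*, *Ndrg2*, *Nedd4* and *Foxo3*, the 10 genes most like *Sgk1*, the brightest marker of a list beside a result, and markers that touch a result, such as *Gfap*, *Prx* and *Ncmap*, which were picked once their values were known. *Ndrg3* and *Ndrg4* were named after their values were seen. The members and lists were chosen with earlier results of these data known, and *Sgk1* had been selected by the study on the levels of these arrays. Alternatives used limma 3.58.1 in R 4.3.3 on the scanner's signals: quantile normalization over 4 arrays or by pair, scaling to the 75th percentile, omission of normalization, normexp correction (offset 50), mean signals without background correction, and omission of outlier spots. Python 3.11.15, numpy 2.4.6 and pandas 2.3.3 were used for the rest. The oligodendrocyte markers are not reported here. The steps were tested on simulated data.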

Additional observations from a re-analysis of the deposited data

Results flagged for a closer look

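2 probes had time ratios of opposite sign in the operations. The brighter *Sgk3* probe had a log2 ratio of ZT10 to ZT22 of -0.19 in ADX+PSL and 0.09 in sham+PSL. The dimmer *Nedd4l* probe had one of 0.26 in ADX+PSL and -0.09 in sham+PSL. In both, the sham+PSL ratio was within the spot error of 0.20, and the ADX+PSL ratio of the *Sgk3* probe was too. The difference between operations was not tested.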

How the results depend on the processing

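All 196 log2 ratios of member probes, under 7 alternatives of normalization and background correction, moved by less than the spot error, and 0 of those past 1.5-fold changed sign. The sign changed in 4 of the 196, which belong to 3 ratios of at most 0.04 in size: *Ndrg1* at ZT22 by operation, the brighter *Nedd4l* probe in sham+PSL by time and the brighter *Sgk3* probe at ZT10 by operation. The ratio of *Sgk1* ranged from 1.15 to 1.25 in sham+PSL by time, 0.22 to 0.39 in ADX+PSL by time, -1.16 to -1.05 at ZT10 by operation and -0.26 to -0.14 at ZT22. A limit of 2-fold left 1 member probe by time in sham+PSL and 0 by operation at ZT22. Signals without normalization left 0 by operation at ZT22, where *Sgk2* was at -0.52. The probes separated by operation were 0 without normalization and 2 with mean signals, with or without normexp correction. Those separated by time point were 3 with mean signals, in both forms. Normalization by pair gives no separation over 4 arrays and was not run for it. An alternative chosen after seeing the data searched again for the genes most like *Sgk1*: 9 or 10 of the 10 were found with processed signals, and 1 or 2 with mean signals. No replicate could be left out and no paired analysis was possible because each condition had 1 array. The cause of these shifts was not tested.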
